A study of Mus musculus with 24 samples.

Results

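The major urinary protein (Mup) genes encode small lipocalins that hepatocytes secrete and the kidney passes into urine, where they carry and release volatile pheromones. Most of the family consists of near-identical copies in the centre of a cluster on chromosome 4. The genes described here are the 6 divergent ones at its edges, Mup3, Mup4, Mup5, Mup6, Mup20 and Mup21, of 22 Mup genes and 25746 genes in the count files. They were taken by name. Mup20 encodes darcin, the male urinary protein that attracts females and makes them remember a scent mark, and it is best known from the liver and urine of males. Mup3 and Mup21 are its neighbours in the cluster, and Mup4 and Mup5 are known mainly from glands such as the lacrimal and salivary glands. Growth hormone released in pulses, androgens and thyroid hormone raise hepatic Mup transcription, and males as a rule make more Mup than females.

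Hepatic expression was measured by RNAseq in 24 C57BL/6N mice aged 12 weeks, with 1 library per mouse. There were 4 groups of 6 mice, males and females with the Mup cluster (mWT and fWT) and males and females that lack it (mKO and fKO). KO mice are homozygous for a CRISPR/Cas9 deletion of the whole Mup cluster, with guides before Mup4 and after Mup21, and all descend from a single male founder. WT mice are littermates with the cluster intact, and the labels name no treatment. Counted reads per library ranged from 15361901 to 26261394, and the Y-linked genes matched the labelled sex in all 24 libraries. The summed CPM (read counts scaled to a common library size with TMM factors) of 5 hepatocyte markers (Alb, Apoa1, Apoh, Serpina1c and Cps1) lay between 88018 and 141986 in every library. Of 5 salivary and lacrimal markers, 4 (Prol1, Smr2, Lpo and Bpifa2) were at 0 in every library, and of 5 pancreatic markers Pnlip was at 0 and the others summed to at most 0.879 CPM.

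In the GENCODE M21 annotation of GRCm38, Mup4 (ENSMUSG00000041333, chromosome 4, 59956804 to 59960710, minus strand) and Mup6 (ENSMUSG00000078689, 59964294 to 60007274, plus strand) open the cluster. Mup5 (ENSMUSG00000058523, 61831319 to 61835233), Mup20 (ENSMUSG00000078672, 62050234 to 62054158), Mup3 (ENSMUSG00000066154, 62083476 to 62087342) and Mup21 (ENSMUSG00000066153, 62147932 to 62150863) close it, all on the minus strand. The other 16 Mup genes lie between Mup6 and Mup5. All 6 are protein coding, and their gene models overlap with 0 other genes in the files.

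The 6 genes differ in sequence from the rest of the family, and a stretch of coding exon 2 is shown as an extreme example. It was picked as the 90-base window within a single exon where Mup20, Mup3 and Mup21 together depart most from the common bases. It is therefore not typical of the coding sequence. Bases in capitals differ from the base that most of the other 16 Mup genes have at that position, and Mup11, a member of the near-identical group, is shown for reference.
Mup3: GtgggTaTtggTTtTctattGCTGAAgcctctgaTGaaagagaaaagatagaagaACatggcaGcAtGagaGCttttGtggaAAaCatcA
Mup21: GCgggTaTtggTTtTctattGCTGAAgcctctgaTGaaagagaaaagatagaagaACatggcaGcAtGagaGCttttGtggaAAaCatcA
Mup20: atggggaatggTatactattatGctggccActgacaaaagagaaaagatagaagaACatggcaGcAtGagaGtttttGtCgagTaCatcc
Mup5: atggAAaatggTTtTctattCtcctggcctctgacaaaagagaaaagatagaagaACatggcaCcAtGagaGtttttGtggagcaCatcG
Mup4: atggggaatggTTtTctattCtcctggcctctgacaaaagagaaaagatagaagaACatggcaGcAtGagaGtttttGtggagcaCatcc
Mup6: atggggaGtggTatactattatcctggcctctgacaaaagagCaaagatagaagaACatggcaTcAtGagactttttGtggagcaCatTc
Mup11: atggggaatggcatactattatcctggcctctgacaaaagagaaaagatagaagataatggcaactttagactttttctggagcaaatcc
The stretch has 90 bases in GRCm38, from chr4:62086840-62086929 in Mup3, chr4:62150235-62150324 in Mup21, chr4:62053520-62053609 in Mup20, chr4:61834595-61834684 in Mup5, chr4:59960079-59960168 in Mup4 and chr4:60661770-60661859 in Mup11 (all minus strand), and chr4:60003982-60004071 in Mup6 (plus strand). Mup3 and Mup21 depart from the common bases at 26 and 27 positions and share 26 of these departures. Mup5 departs at 15, Mup20 at 13, Mup4 at 12 and Mup6 at 11 positions, and Mup11 at 0.

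Over the whole coding sequence, Mup3 and Mup21 were 96.3% identical, the closest pair among the 6 genes. To the other 16 Mup genes, the median identity was 91.1% for Mup20, 90.2% for Mup5, 89.9% for Mup6, 89.3% for Mup4, 84.9% for Mup3 and 84.6% for Mup21. The 120 pairs among those 16 genes were 95.7% to 100% identical, with a median of 99.1%. Of all 100-base windows, the read length, in the annotated transcripts of a gene, the share found in no other gene was 100% for Mup4 and Mup6, 98.7% for Mup5, 97.8% for Mup3, 95.5% for Mup21 and 61.2% for Mup20. For the other 16 genes it was 0% to 44.3%, with a median of 24.1%. The shared windows of Mup20 all belong to the pseudogene Mup-ps19 and to no Mup gene, and those of Mup3 and Mup21 belong to each other. How the counting treated reads that fit several places is not given in the sources used here, and what this did to the counts of Mup20 was not tested. Those of the other 5 genes rest almost wholly on sequence of their own.

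**Figure D1:**
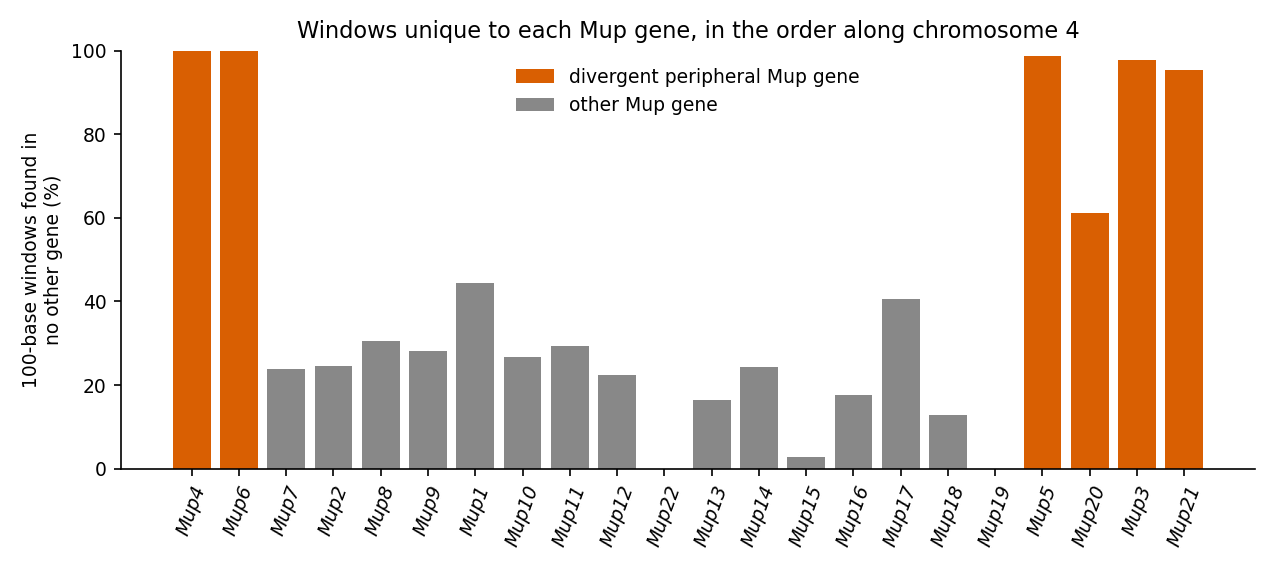
Bars give, for each of the 22 Mup genes in their order along chromosome 4, the share (%) of 100-base transcript windows that occur in no other gene. The 6 divergent peripheral genes lie between 61.2% and 100%, and the 16 other Mup genes, from Mup7 to Mup19, between 0% and 44.3%.

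Levels between genes were compared as CPM per kb of exon. In mWT mice Mup3 had the highest level of the 6 genes with 9617 CPM per kb and was 4th of 25635 annotated genes, and Mup20 followed with 6486 CPM per kb at rank 9. Mup21 reached 226 CPM per kb at rank 193. Mup6, Mup5 and Mup4 were near the limit of detection with 0.712, 0.532 and 0.149 CPM per kb. In fWT mice the order by mean was the same, but the step from Mup3 to Mup20 was wide: Mup3 stood at 3439 CPM per kb (rank 14), Mup20 at 95.6 (rank 442) and Mup21 at 8.08 (rank 3361), while Mup6, Mup5 and Mup4 had 0.108, 0.108 and 0.00862 CPM per kb.

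Neighbours in that order did not all differ beyond their spread. In mWT mice the ranges of Mup3 and Mup20 overlapped, although Mup3 was higher within each of the 6 mice. Their order turned when the CPM of all counted reads was divided by windows found in no other gene alone (11873 per kb for Mup20, 9017 for Mup3). Such a value is a level only if reads from shared windows were left out of the counts, which is not known. Ranges were apart between Mup20 and Mup21 and between Mup21 and Mup6 in both sexes, and between Mup3 and Mup20 in fWT mice. Those of Mup6, Mup5 and Mup4 overlapped in both sexes.

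**Figure D2:**
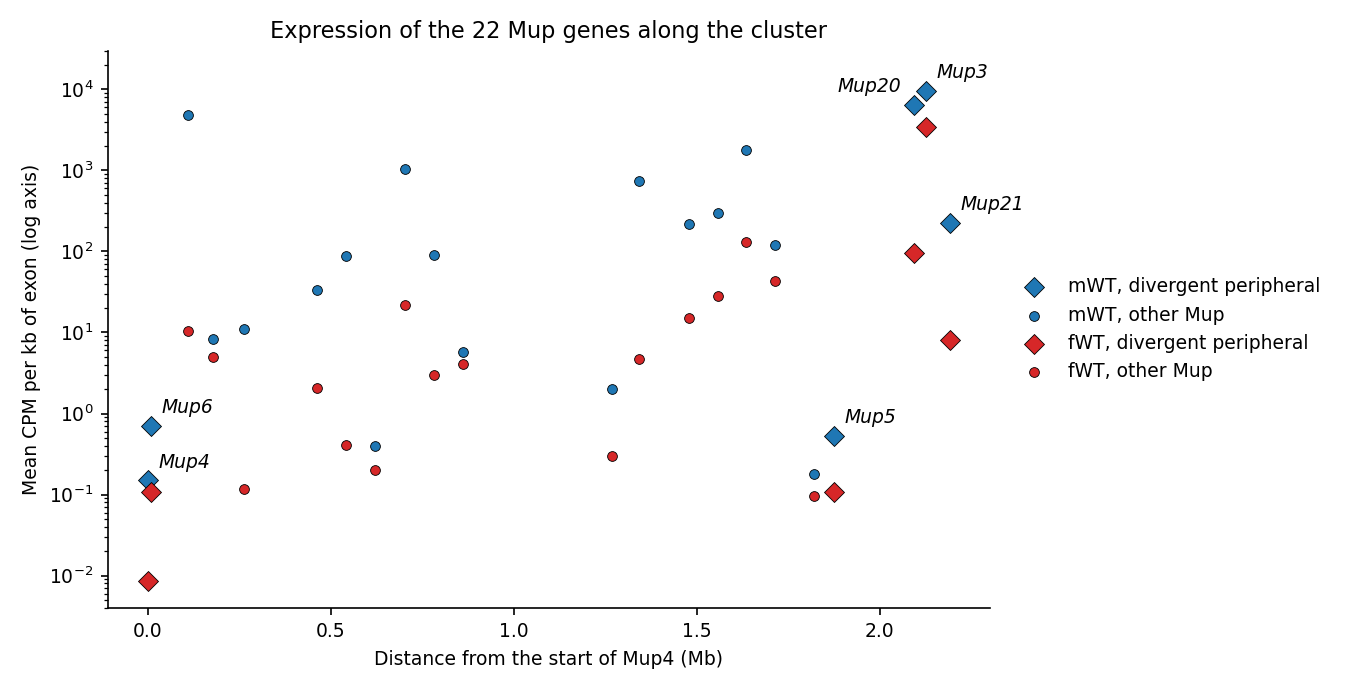
Mean CPM per kb of exon (log axis, n = 6 mice) of the 22 Mup genes against the distance of their start from that of Mup4 (Mb), with mWT mice in blue, fWT mice in red and the 6 divergent peripheral genes as diamonds. Mup20, Mup3 and Mup21 lie side by side from 2.09 Mb onward with 6486, 9617 and 226 CPM per kb in mWT mice, whereas Mup4, Mup6 and Mup5 stay under 1 CPM per kb.

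Mup20 (darcin) showed the widest gap between the sexes among the 3 expressed genes. It ranged from 4259 to 8581 CPM in mWT mice (median 5899) and from 60.2 to 146 CPM in fWT mice (median 83.3). The lowest mWT mouse was therefore well above the highest fWT mouse. The group means were 6019 ± 1581 CPM (SD, n = 6) in mWT and 88.7 ± 31.1 CPM (SD, n = 6) among fWT mice. mWT mice thus had 67.9-fold more Mup20 (log2 fold change 6.08, SE 0.231, edgeR adjusted p = 5.82e-16). Mup20 ranked 18 among the 12330 genes tested when these were ordered by how much higher they were in mWT mice.

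Mup3 was abundant in both sexes. It ranged from 6398 to 12523 CPM in mWT mice (median 10578) and from 3100 to 4834 CPM in fWT mice (median 3491), again without overlap. The means of 10271 ± 2225 CPM (SD, n = 6) and 3672 ± 632 CPM (SD, n = 6) differed 2.80-fold (log2 fold change 1.48, SE 0.183, edgeR adjusted p = 2.06e-06).

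Mup21, the closest relative of Mup3 in sequence, did not share its modest sex difference. It ranged from 48.4 to 291 CPM in mWT mice (median 141) and from 3.91 to 8.58 CPM in fWT mice (median 5.16). The groups were 153 ± 88.6 CPM (SD, n = 6) and 5.47 ± 1.64 CPM (SD, n = 6), and differed 27.8-fold (log2 fold change 4.80, SE 0.459, edgeR adjusted p = 3.15e-05). Of these 3 genes Mup21 varied most between males, with a coefficient of variation of 58.0% in mWT mice against 26.3% for Mup20 and 21.7% for Mup3. In fWT mice these were 29.9%, 35.1% and 17.2%. The median over the genes outside the Mup family with at least 100 CPM was 10.03% in mWT and 10.2% in fWT mice. Over all tested genes outside the family it was 13.7% and 12.8%. In fWT mice the means of Mup20 and Mup21 lay under 100 CPM.

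In all, 3 of the 6 genes passed the filter of 0.66 CPM in at least 6 libraries, and all 3 were called higher in mWT mice, where 8.51% of the genes tested were called in that direction and 8.82% in the other. All 3 also had an unadjusted p under the study's cut-off of 0.01 in this and in both KO comparisons, which 18.2% of genes reached here, 3.52% in KO males and 0.868% in KO females. In the KO comparisons the deletion fixed this outcome in advance. The mWT and fWT groups of these 3 genes did not overlap, which held for 3.67% of the genes tested, higher in mWT mice. Differences between the sexes in bulk liver cannot tell fewer expressing cells from less RNA per cell. Markers of other liver cells also differed between mWT and fWT mice, with 3 of 4 Kupffer, 3 of 4 sinusoidal endothelial, 2 of 4 stellate and 1 of 3 tested cholangiocyte markers lower in mWT mice, and the 5 hepatocyte markers with 1 higher and 1 lower. The summed Kupffer markers were at 63.0 to 128 CPM in mWT and 114 to 211 CPM in fWT mice, the endothelial ones at 127 to 154 and 141 to 202, the stellate ones at 164 to 300 and 249 to 325, the cholangiocyte ones at 30.1 to 39.5 and 35.3 to 55.9, and the hepatocyte ones at 88018 to 119956 and 93331 to 139046. Markers of T and B cells summed to at most 2.24 CPM in these 12 mice. The part of all these cells in the result was not tested.

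**Figure D3:**
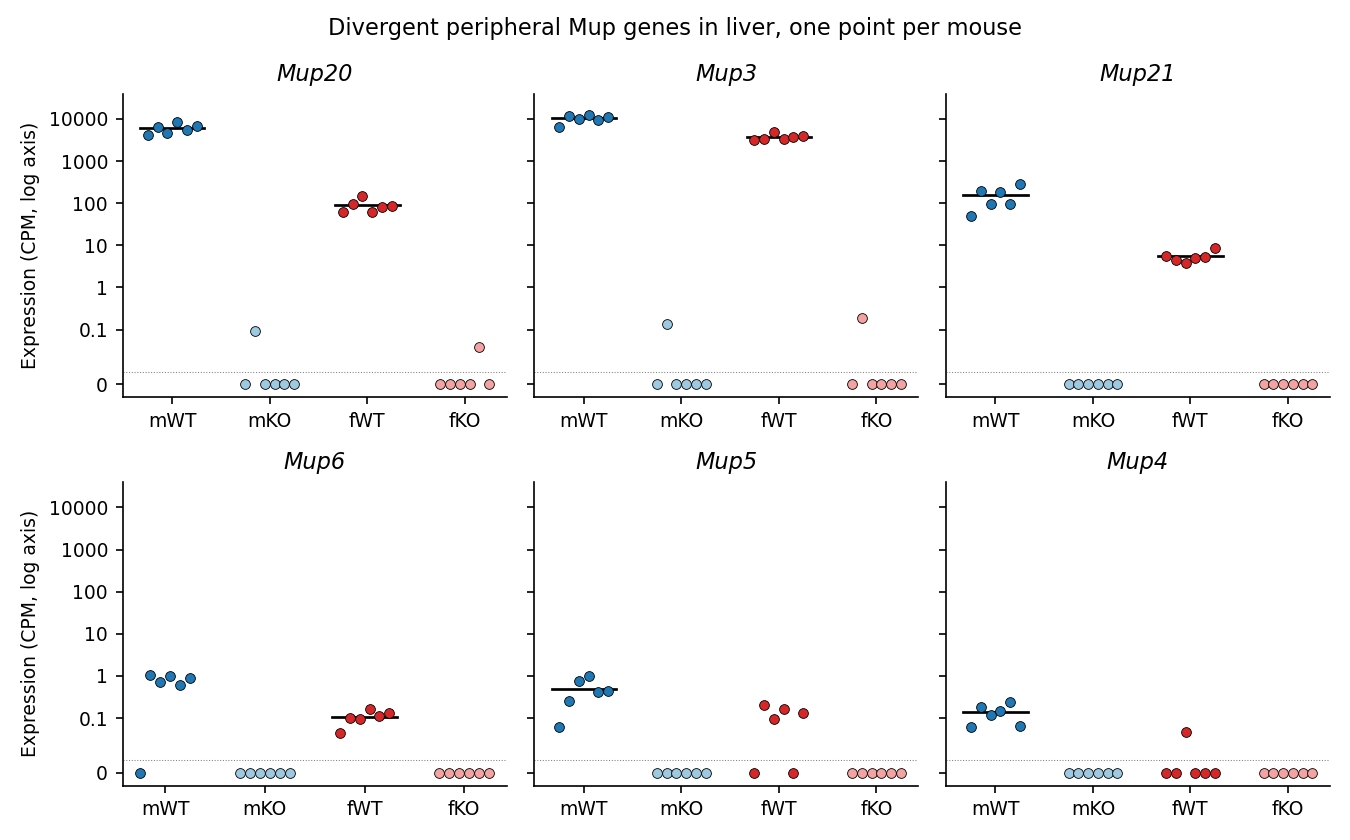
CPM on a log axis for each of the 6 genes, 1 point per mouse and 6 mice in each group, with values of 0 drawn at the lowest tick and a line for the mean where no mouse is at 0. All mWT points of Mup20, Mup3 and Mup21 lie above all fWT points, and nearly all KO points lie at 0.

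Mup6, Mup5 and Mup4 had at most 20 reads in any library. Mup6 had 0 to 20 reads per mWT library (median 13) and 1 to 4 per fWT library (median 2), Mup5 had 1 to 20 (median 7) and 0 to 4 (median 2.5), and Mup4 had 1 to 4 (median 2.5) and 0 to 1 (median 0). The sexes overlapped for Mup6, where mWT mouse 1 had 0 reads, and for Mup5, while the lowest Mup4 value in mWT and the highest in fWT mice both rest on 1 read. These 3 genes fell below the filter. In a fit without the filter they were higher in mWT mice, by 2.64 for Mup6 (SE 0.556, edgeR adjusted p = 0.00283) and 2.24 for Mup5 (SE 0.6251, adjusted p = 0.0228) on the log2 scale, and Mup4 had an adjusted p = 0.00749. There 5.06% of 18682 genes were called higher in mWT mice. Pooled over the 6 mice, the mWT to fWT ratio was 6.39 for Mup6 (95% exact counting interval 3.58 to 12.3) and 4.90 for Mup5 (2.63 to 9.82). For Mup4, with 14 reads against 1, it was 17.2 (2.61 to 726). Such intervals cover counting error only, as the reads of the 6 mice of a group were pooled and the spread between mice is left out. The reads also carry no molecular identifiers.

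Against the rest of the family, the 3 expressed genes lay inside the range of sex differences, with log2 fold changes from 1.48 (Mup3) to 6.08 (Mup20). Of the other 16 Mup genes, 14 were tested and 11 were called, all higher in mWT mice, with log2 fold changes from 0.47 (Mup22) to 8.87 (Mup7) and a median of 3.94. Above Mup20 stood 4 of them (Mup7, Mup1, Mup14 and Mup8), and below Mup3 stood 3 (Mup18, Mup2 and Mup22), none of which was called. Read sharing among those near-identical genes leaves their single values, and possibly their sum, uncertain, whereas Mup3 and Mup21 rest on sequence of their own.

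**Figure D4:**
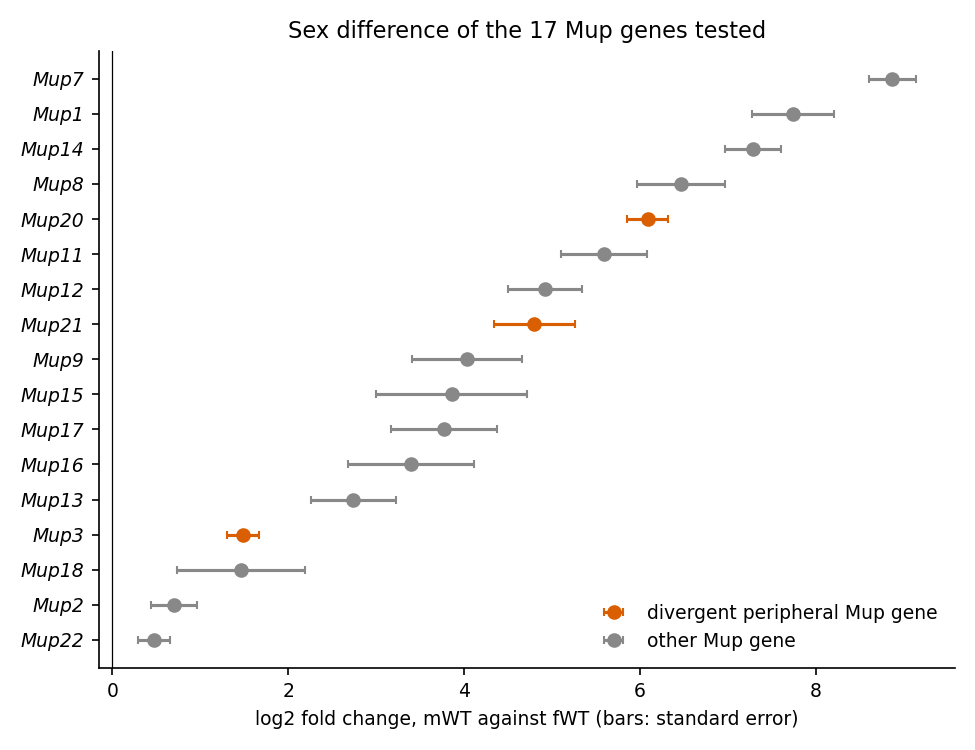
log2 fold change of mWT against fWT mice with its standard error for the 17 Mup genes that passed the filter, the divergent peripheral genes in orange. Mup20 (6.08) and Mup21 (4.80) lie in the upper part and Mup3 (1.48) in the lower part of the range from 0.47 to 8.87.

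To ask how the family is composed in each sex independently of library size, the share of each gene in all Mup counts of a mouse was compared. All shares depend on the summed counts of the other 16 genes, whose median share of windows found in no other gene was 24.1%. How reads that fit several of these genes were counted is not given, so their sum may be incomplete. What this did to the shares was not tested. Mup3 made up 38.9% ± 4.55 (SD, n = 6) of the Mup counts of males (mWT), with a range of 33.5% to 45.0%, and 90.8% ± 4.82 (SD, n = 6) of those of females (fWT), with a range of 83.3% to 96.7%. Its share was thus higher in females although its level was higher in males. Mup20 made up 22.8% ± 3.67 (SD, n = 6) in mWT (16.3% to 27.3%) and 2.15% ± 0.404 (SD, n = 6) in fWT mice (1.69% to 2.77%). Mup21 made up 0.566% ± 0.329 (SD, n = 6) and 0.139% ± 0.0479 (SD, n = 6). The shares of all 3 differed between the sexes (two-sided exact permutation tests, p = 0.00216 each, the smallest p that 6 mice against 6 allow, adjusted p = 0.00433 over the 22 Mup genes). For Mup4, Mup5 and Mup6, at most 0.00511% of the Mup counts in any mouse, they did not (exact permutation tests, adjusted p = 0.122, 0.519 and 0.821).

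Together the 6 genes held 62.3% ± 7.64 (SD, n = 6) of male (mWT) and 93.1% ± 4.85 (SD, n = 6) of female (fWT) Mup counts, and Mup3 with Mup20 held nearly all of this. These shares, and the ratios to the other 16 genes below, carry the same limit on the counts of those genes. The remaining 16 Mup genes summed to 10224 ± 3978 CPM (SD, n = 6) in males and 275 ± 189 CPM (SD, n = 6) in females, where they ranged 15.1-fold, from 37.7 CPM in fWT mouse 6 to 567 CPM. Set against that sum instead of all Mup counts, Mup20 amounted to 64.2% ± 22.6 (SD, n = 6) in males and 65.8% ± 79.6 (SD, n = 6) in females, a difference of −1.62 percentage points that did not pass the test (exact permutation test, adjusted p = 1). The female mean rests on fWT mouse 6. Without that mouse, left out after the data were seen, Mup20 was at 34.2% ± 20.3 (SD, n = 5) in females and 30.01 percentage points higher in males (exact permutation test, adjusted p = 0.0644). Mup3 amounted to 109% ± 35.9 (SD, n = 6) and 2896% ± 3669 (SD, n = 6), and its highest mWT value of 169% lay below its lowest fWT value of 586%. Without fWT mouse 6 its female mean was 1427% ± 800.3 (SD, n = 5). Mup21, with 1.70% ± 1.41 (SD, n = 6) and 5.41% ± 8.58 (SD, n = 6), was lower in males by this measure without passing the test, and without fWT mouse 6 its difference was −0.23 percentage points, with 1.93% ± 1.16 (SD, n = 5) in females.

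**Figure D5:**
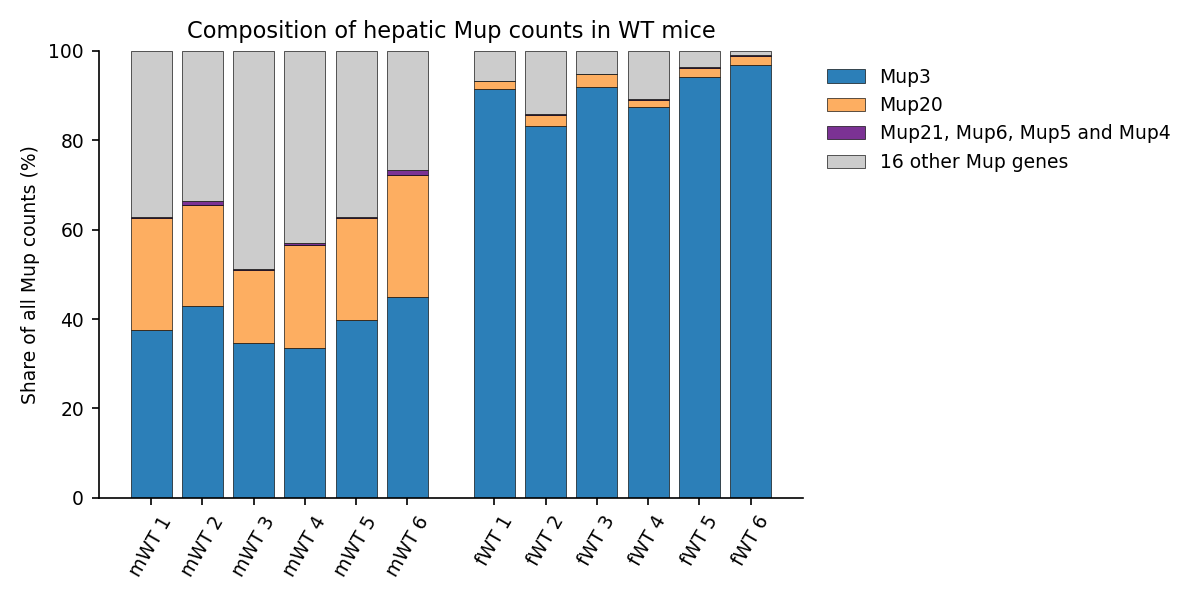
Stacked bars of the share (%) of Mup3, Mup20, the other 4 divergent peripheral genes together and the 16 other Mup genes in all Mup counts, 1 bar per WT mouse. Mup3 fills 33.5% to 45.0% of each mWT bar and 83.3% to 96.7% of each fWT bar, and Mup20 16.3% to 27.3% and 1.69% to 2.77%. The counts of the 16 other Mup genes may be incomplete, as they share much of their sequence.

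Within a mouse, the ratio of Mup3 to Mup20 in CPM ran from 1.46 to 2.13 in mWT and from 33.2 to 51.7 in fWT mice. For Mup3 over Mup21 the ratio ran from 38.6 to 132 in mWT and from 449 to 1237 in fWT mice. The ratios of the sexes did not overlap in either pair. Mouse 1 had the lowest value of each of the 6 genes among mWT mice. Mouse 4 was the highest mWT mouse for both Mup20 and Mup3, whereas mouse 6 was the highest for Mup21. Among fWT mice, mouse 3 was the highest for Mup20 and Mup3 and at the same time the lowest for Mup21.

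As a description of which genes vary like these between mice, log2 CPM was compared over the 12 WT mice after the mean of each sex was removed. Among 12313 genes outside the Mup family, those with the pattern most like Mup20 were Cebpz, Pkp4, Ssrp1, Dusp3 and Agtpbp1, with Pearson coefficients from 0.886 to 0.906. Those most like Mup3 were Gm4788, Mat2a (the methionine adenosyltransferase of non-hepatic type), Rap1gds1, Glb1 (a lysosomal beta-galactosidase) and Slc22a28, from 0.913 to 0.949. For Mup20 and Mup3 with each other the coefficient was 0.818. The values of a mouse come from 1 library and share its depth, and the coefficients are given without a test. Of the 5 genes named for each, 0 were among the top 5 when the 6 mWT mice were taken alone.

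Genes of growth hormone, prolactin and other hormone signalling, with transcription and chromatin regulators expressed in liver, were examined in the same comparison. Of 29 listed and tested, 2 were called higher and 6 lower in mWT than in fWT mice, or 27.6%, where 17.3% of all genes tested were called, and their median log2 fold change of −0.04 stood beside −0.00204 for all genes. Ghr, the growth hormone receptor, was at 718 ± 92.5 CPM (SD, n = 6) in males and 554 ± 34.2 CPM (SD, n = 6) in females (log2 fold change 0.37, edgeR adjusted p = 0.0014), and Foxa3, a forkhead factor of hepatocytes, had a log2 fold change of 0.61. Among those lower in mWT mice were Cux2, a female-biased repressor of male-biased liver genes (log2 fold change −6.30), Prlr, the prolactin receptor (−2.32), Socs2, a feedback inhibitor of growth hormone signalling (−1.55), Igfals, a carrier of insulin-like growth factor (−0.68), and Nfia (−0.29).

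Among liver genes known for their sex bias, all 10 listed male-biased genes were called higher in males, at a median of 4.56 on the log2 scale. They were listed for that bias, which gives the count no weight of its own. Mup20, at 6.08, exceeded 8 of them, among them Cyp2d9 (5.08) and Elovl3 (4.96), and lay below Cyp4a12a (10.02) and Moxd1. Mup3, at 1.48, lay below all 10, of which Slco1a1 (1.87), an organic anion transporter, was the lowest.

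The deletion removes all 6 genes, so the KO libraries check the labels. Of 12 KO libraries, 9 held 0 reads of these genes and 3 held 11 reads in all. In mKO mouse 2 there were 3 reads of Mup3 and 2 of Mup20, in fKO mouse 2 there were 5 of Mup3, and in fKO mouse 5 there was 1 of Mup20. The same 3 libraries held 12 reads of other Mup genes. Mup21, Mup6, Mup5 and Mup4 had 0 reads in all 12 libraries, and for Mup20, Mup3 and Mup21 every WT mouse exceeded every KO mouse of its sex, as held for 0.503% of all genes tested in males and 0.227% in females.

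With a floor of 3 counts over each KO group, Mup21 was at least 5937-fold lower in mKO than in mWT and at least 239-fold lower in fKO than in fWT mice. In males the bounds ran from at least 5.38-fold lower for Mup4 to at least 28.1-fold lower for Mup6, with Mup5 between. In females they were 4.76-fold for Mup6 and 4.42-fold for Mup5, and Mup4 was at or under the floor in both genotypes. For Mup20, with 2 reads in mKO and 1 in fKO mice, the ratio of WT to KO was 355611 in males (95% exact counting interval 98443 to 2936398) and 11420 in females (2049 to 451088). For Mup3 it was 402285 in males (137654 to 1950723) and 95295 in females (40835 to 293492). These intervals too pool the mice of a group and leave out the spread between them.

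All 3 tested genes were called lower in KO mice of both sexes, where 0.178% of all genes tested were called lower in mKO and 0.0892% in fKO mice. The deletion fixed these calls in advance, and the genes passed the filter only through WT libraries. The calls therefore check the labels and carry no further weight. The edgeR adjusted p-values were 3.11e-20 for Mup20, 6.22e-21 for Mup3 and 1.81e-05 for Mup21 in males, and 2.70e-16, 2.91e-20 and 0.0196 in females. For Mup21 in females this call was lost when mWT mouse 2 or fWT mouse 1, 4 or 5 was left out, with adjusted p = 0.0546 to 0.0635, although all 6 fKO libraries were at 0.

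The promoters of 4 of the 6 genes (RefSeq, GRCm38.p6, 250 bases before and 50 after each start) are shown for a pair of expressed genes, Mup3 and Mup21, and a pair with few reads, Mup4 and Mup6. Mup20 and Mup5 had no entry among the promoters used. Each stretch below ends with the TATATAA element, in capitals.
Mup3: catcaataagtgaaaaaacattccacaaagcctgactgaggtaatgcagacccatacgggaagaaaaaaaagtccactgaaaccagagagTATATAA
Mup21: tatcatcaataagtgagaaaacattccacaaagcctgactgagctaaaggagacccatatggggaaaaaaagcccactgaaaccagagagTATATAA
Mup4: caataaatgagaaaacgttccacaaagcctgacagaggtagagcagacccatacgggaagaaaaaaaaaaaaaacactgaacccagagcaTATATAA
Mup6: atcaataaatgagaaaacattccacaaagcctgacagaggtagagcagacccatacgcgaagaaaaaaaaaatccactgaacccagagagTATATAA
They lie at chr4:62087322-62087418 (Mup3), chr4:62150843-62150939 (Mup21), chr4:59960690-59960786 (Mup4), all on the minus strand, and chr4:60003362-60003458 (Mup6, plus strand), each 97 bases long. The GENCODE models of these 4 genes begin further upstream than the RefSeq starts. The whole Mup6 stretch and the TATATAA of Mup3, Mup21 and Mup4 therefore lie inside the gene models given above. TATATAA, searched on both strands, was present in all 4 promoters, in 9 of the 10 promoters of other Mup genes and in 3.24% of 32851 promoters. The letters TTCNNNGAA (8.30% of all promoters), TTGCNNAA (10.8%) and TGTTTAC (3.65%) were not found in these 4 windows, which says nothing about sites elsewhere.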

How the data were processed

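Liver RNA of 24 mice was sequenced as 100-base single-end reads from a stranded mRNA kit, with 1 library per mouse. Per the submitters' processing notes, bcl2fastq 2.19, fastp 0.20, STAR 2.7a and the build GRCm38.p6 were used. The authors counted reads per Ensembl gene with featureCounts and deposited raw counts. The annotation release, strand setting and treatment of reads with several hits are not given in the sources used here. Symbols were matched for 25635 of 25746 genes through GENCODE M21.

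Counts were analysed with edgeR 4.0.16 (R 4.3.3), with TMM factors, a minimum of 0.66 CPM in 6 or more libraries and 1 mean per group over all 24 mice. The quasi-likelihood test (robust dispersions) was used, and a Benjamini-Hochberg adjusted p under 0.05 made a call. Library sizes were 15361901 to 26261394, so 3 counts are at most 0.195 CPM. For shares, two-sided exact permutation tests were used. Coding sequences were aligned with MAFFT 7.526 and Biopython 1.88. The procedure was tested on simulated data. Replicates differed by more than sampling noise. Mice were grouped by the labels. Alternatives are given at the end.

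The 6 genes, the lists of hormone signalling genes with transcription and chromatin regulators, sex-biased genes and cell type markers, and the rule for genes of similar pattern (the 5 highest positive coefficients) were chosen with earlier results of these data known. Nothing in the labels pairs mice across groups. A single-gene result from the first of these lists is not reported here.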

Additional observations from a re-analysis of the deposited data

Results flagged for a closer look

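Among the 16 groups of 6 mice in which any of the 6 genes had a read, a mouse stood apart from the others in 6, by Dixon's criterion. In fWT mice, mouse 6 had the highest Mup21 level at 8.58 CPM, with 5.59 CPM in the next mouse. Chance meets the criterion in about 1 of 20 groups of continuous values. That rate does not apply to the remaining 5, where the other 5 mice are at 0 and any read in 1 mouse meets the criterion by construction. They are Mup20 in mKO mouse 2 (0.0914 CPM, 2 reads) and in fKO mouse 5 (0.0391 CPM, 1 read), Mup3 in mKO mouse 2 (0.137 CPM, 3 reads) and in fKO mouse 2 (0.188 CPM, 5 reads), and Mup4 in fWT mouse 3 (0.0477 CPM, 1 read).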

How the results depend on the processing

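Every edgeR and DESeq2 alternative kept Mup20, Mup3 and Mup21 higher in mWT than in fWT mice and past the threshold. Over all single mice left out, the log2 fold change ranged from 5.96 to 6.28 for Mup20, from 1.42 to 1.59 for Mup3 and from 4.51 to 4.98 for Mup21. Without the filter, 6 of the 6 genes were called between the sexes and 5 in KO males, and with 0.66 CPM in at least 2 libraries 5 were called in each. Mup6 and Mup5 reached 0.66 CPM in mWT mice alone. They entered that fit only through the group where they were high, so their calls there carry no weight. In KO males 26 genes of any family were called, against 107 with DESeq2, 49 in a fit of the 2 groups alone and 19 to 59 with single mice left out (59 without mWT mouse 1, 40 without mWT mouse 2). In KO females 11 were called, against 18 with DESeq2 and 8 to 12 with single mice left out, where 2 to 3 of the divergent genes were called. With the mouse number as a replicate block, 2062 genes of any family differed between the sexes (2136 without it), 24 in KO males and 11 in KO females, 3 of the 6 genes among them each time. Same-numbered mice correlated above 0.1 in 1 of 6 pairs in each comparison. This gave no sign that the numbers pair the mice, but 6 correlations cannot exclude it.

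As a ratio to the 16 other Mup genes, the difference of mWT minus fWT mice became −1.62 percentage points for Mup20 (adjusted p = 1), −3.71 for Mup21 (adjusted p = 0.439) and −0.00152 for Mup4, and for Mup6 −0.0839, which passed the threshold (adjusted p = 0.00433). This ratio was also recomputed with each WT mouse left out, an alternative chosen after seeing the data. It ranged from −11.7 to 30.01 for Mup20, positive without mWT mouse 3 (4.56), mWT mouse 4 (0.558) or fWT mouse 6 (30.01), from −3249 to −1318 for Mup3, from −4.63 to −0.232 for Mup21, from −0.0985 to −0.0312 for Mup6, from −0.0888 to −0.0179 for Mup5 and from −0.0021 to 0.00141 for Mup4. The values nearest to 0 for Mup3, Mup21, Mup6 and Mup5 were those without fWT mouse 6. Mup6 lost its call without any one of the mWT mice, Mup5 passed the threshold without fWT mouse 1 or 5, and Mup4 turned positive and passed it without fWT mouse 3. With single mice left out, the share difference ranged from 19.8 to 21.99 percentage points for Mup20, −53.4 to −50.7 for Mup3, 0.307 to 0.483 for Mup21, 0.000269 to 0.00052 for Mup4 (past the threshold without fWT mouse 3) and −0.000484 to 0.000293 for Mup6, with a change of sign without mWT mouse 1 (0.000293) or fWT mouse 4 (0.000131). Why these moved was not tested. With CPM divided by the number of windows found in no other gene, the ranks in mWT mice were 1 for Mup20 and 2 for Mup3. In fWT mice they were 4 for Mup5 and 5 for Mup6. Of the 5 genes most like Mup20, 2 were among the 5 by rank correlation and 0 in mWT mice alone, and of those most like Mup3, 0 in mWT mice alone. Reads of Mup4, Mup5 and Mup6 are too few for their order to be read at this depth.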
